A study of Homo sapiens with 4 samples.

Results

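Interferon-stimulated antiviral genes are the genes that cells switch on after they sense viral nucleic acid or receive type I interferon. A list of 57 genes under this name was followed in U87MG cells that overexpressed NeuroD2. It also holds genes of the pathway itself, such as IFNB1, IFNAR1, IFNAR2 and IRF3, and IFITM10, which is not known as a typical interferon target. The 57 were listed by name, with earlier results of these arrays known. A gene was read on the probe set that carries its symbol alone and has the highest mean over the 4 arrays. In this way 55 of the 57 were measured, out of 18132 genes in all, on 148 probe sets. USP18 had only a probe set that carries further symbols, and STAT2 was not analysed here. U87MG is an established human glioblastoma line. Its cells were transfected with a PCMV control vector or with a vector that expresses NeuroD2, a proneural transcription factor of the helix-loop-helix family. Both groups grew at 0.2% oxygen and were harvested 48 hours after transfection, and each gave 2 PrimeView arrays that the labels name biological replicates 1 and 2. The groups are therefore whole, transiently transfected cultures of a single line at low oxygen, with no group at normal oxygen and no untransfected cells among the samples. The share of cells that took up the vector is not given in the sources used here. Nothing in the labels says how the cultures were kept apart, so p-values measure only the spread between these samples. In such bulk RNA, fewer expressing cells and less RNA per cell cannot be told apart.

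As background, type I interferon such as IFN-beta binds the receptor made of IFNAR1 and IFNAR2, and the kinases JAK1 and TYK2 then activate the complex ISGF3, which holds IRF9 and binds the interferon-stimulated response element (ISRE) in the promoters of antiviral genes. Many of these genes are expressed at a low tonic level without infection. Their products bind or degrade viral RNA (the IFIT and OAS proteins), hold viruses at membranes (the IFITM proteins), trap viral capsids (the MX proteins) or attach the ubiquitin-like protein ISG15 to other proteins.

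Promoter windows of 5 members are shown first, 4 with a match to the ISRE core pattern and 1 without. The genes that fell include both kinds. The windows come from RefSeq on GRCh38.p14, run 5′ to 3′ on the strand of the gene, and span 250 bases before to 50 bases after a transcript start. Capitals mark each match to the ISRE core, GAAA followed by any 2 bases and GAAA, searched on both strands, so that a match on the other strand reads TTTC first. IFIT1 lies at chr10:89392373-89392672, plus strand, IFIT3 at chr10:89327747-89328046, plus strand, TLR3 at chr4:186068906-186069205, plus strand, ISG15 at chr1:1013247-1013546, plus strand, and OAS1 at chr12:112906712-112907011, plus strand.
IFIT1: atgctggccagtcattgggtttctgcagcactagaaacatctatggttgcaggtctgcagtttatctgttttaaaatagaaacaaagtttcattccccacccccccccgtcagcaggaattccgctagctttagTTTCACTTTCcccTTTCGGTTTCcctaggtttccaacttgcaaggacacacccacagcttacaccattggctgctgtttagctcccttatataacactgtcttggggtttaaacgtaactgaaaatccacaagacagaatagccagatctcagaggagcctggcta
TLR3: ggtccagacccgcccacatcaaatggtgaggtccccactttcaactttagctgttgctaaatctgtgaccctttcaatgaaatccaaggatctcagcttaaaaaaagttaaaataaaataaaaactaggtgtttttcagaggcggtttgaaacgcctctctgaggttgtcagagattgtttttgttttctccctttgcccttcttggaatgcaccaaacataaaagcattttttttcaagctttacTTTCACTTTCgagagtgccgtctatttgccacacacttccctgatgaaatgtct
IFIT3: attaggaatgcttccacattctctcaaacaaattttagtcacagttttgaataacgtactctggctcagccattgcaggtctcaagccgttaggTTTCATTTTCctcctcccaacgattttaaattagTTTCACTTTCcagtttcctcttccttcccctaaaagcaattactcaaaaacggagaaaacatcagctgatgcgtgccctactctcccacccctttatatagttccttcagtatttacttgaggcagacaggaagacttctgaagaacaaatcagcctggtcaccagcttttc
ISG15: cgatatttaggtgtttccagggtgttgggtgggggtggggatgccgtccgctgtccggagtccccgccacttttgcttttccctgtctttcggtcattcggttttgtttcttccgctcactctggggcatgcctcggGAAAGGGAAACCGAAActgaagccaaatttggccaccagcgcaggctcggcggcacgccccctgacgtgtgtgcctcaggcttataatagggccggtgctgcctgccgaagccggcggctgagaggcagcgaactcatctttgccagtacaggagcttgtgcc
OAS1: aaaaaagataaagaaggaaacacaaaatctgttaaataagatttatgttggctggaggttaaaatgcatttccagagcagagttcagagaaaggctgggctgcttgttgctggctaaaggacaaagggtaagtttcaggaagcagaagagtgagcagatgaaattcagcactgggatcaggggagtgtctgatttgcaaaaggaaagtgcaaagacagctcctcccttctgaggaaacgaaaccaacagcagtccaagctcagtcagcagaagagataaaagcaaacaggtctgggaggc

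IFIT1, which fell with NeuroD2, holds 2 matches, which begin 116 and 103 bases before the start, and TLR3, which also fell, holds 1 that begins 4 bases before it. IFIT3 and ISG15 hold 2 each (those of ISG15 overlap) and did not pass the test. OAS1 fell, and its window holds no match to this pattern. That window does hold gaaacgaaa, with a gap of 1 base where the search asked for 2. Of the 55 measured members, 42 had at least 1 window in the table, and 27 of these 42 (64.3%) held the core in at least 1 of their 57 windows. By window the share was 54.4%, against 3.57% of all 35116 windows in the table, 3.13% of the windows of genes measured here and 26.7% of the windows of other interferon pathway genes. Among the 27 members with a match, 3 fell (IFIT1, TLR3 and PARP9, the last in its second window) and the median log2 difference was -0.15. Among the 15 without a match, 2 fell (OAS1 and IRF9) and the median was -0.04. The other members that fell, IFITM10, IFIT2, MX2 and IFITM2, had no window and are outside this split. Being without a match to this pattern does not mean being without an ISRE. The gamma-activated site, TTC followed by any 3 bases and GAA, was found in 22.8% of the members' windows and 7.66% of all windows. The E-box CAGATG, a sequence that NeuroD factors are known to bind, was found on either strand in 22.8% of the members' windows and 14.7% of all windows. The motifs were searched separately, overlaps with each other were not removed, and a match is a description of the letters and not of binding.

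With the NeuroD2 vector, 9 of the 55 members fell and 0 rose. They were IFITM10, IFIT1, OAS1, TLR3, IFIT2, MX2, IFITM2, PARP9 and IRF9, with log2 differences from -1.29 to -0.46, and 46 members did not pass. Calls are limma's, at an adjusted p below 0.05 with Benjamini-Hochberg adjustment over all 18132 genes. The share that fell was 16.4% of the members, against a background of 2.96% of all genes lower and 1.81% higher. At an unadjusted p below 0.05, 17 members were lower and 1 higher, where 12.5% of all genes were lower and 9.27% higher. Both NeuroD2 arrays lay below both control arrays in 30 members and above both in 7, against backgrounds of 26.6% and 24.2% of all genes. The median difference of the members was -0.11, with quartiles of -0.32 and 0.00, and that of all genes was 0.00, with quartiles of -0.11 and 0.11. Since results of these arrays were known when the members were listed, no test was made of the list as a whole. Of the 9 that fell, 4 had a level at or above the median of all genes and 5 a level below it. Among the brighter genes alone, those at or above that median, the 2 shares were closer. There 8 of 31 members (25.8%) and 14.1% of 9066 genes were lower. The count rested on all 4 arrays. Fits without 1 array leave a single array in that group, and few or no genes of any kind were then called, members included. In these fits the median difference of the members ran from -0.13 to -0.08. The difference of each of the 9 stayed below 0 in all 4 of these fits. That sign was fixed in advance, because both NeuroD2 arrays lay below both control arrays for each of the 9.

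**Figure D1:**
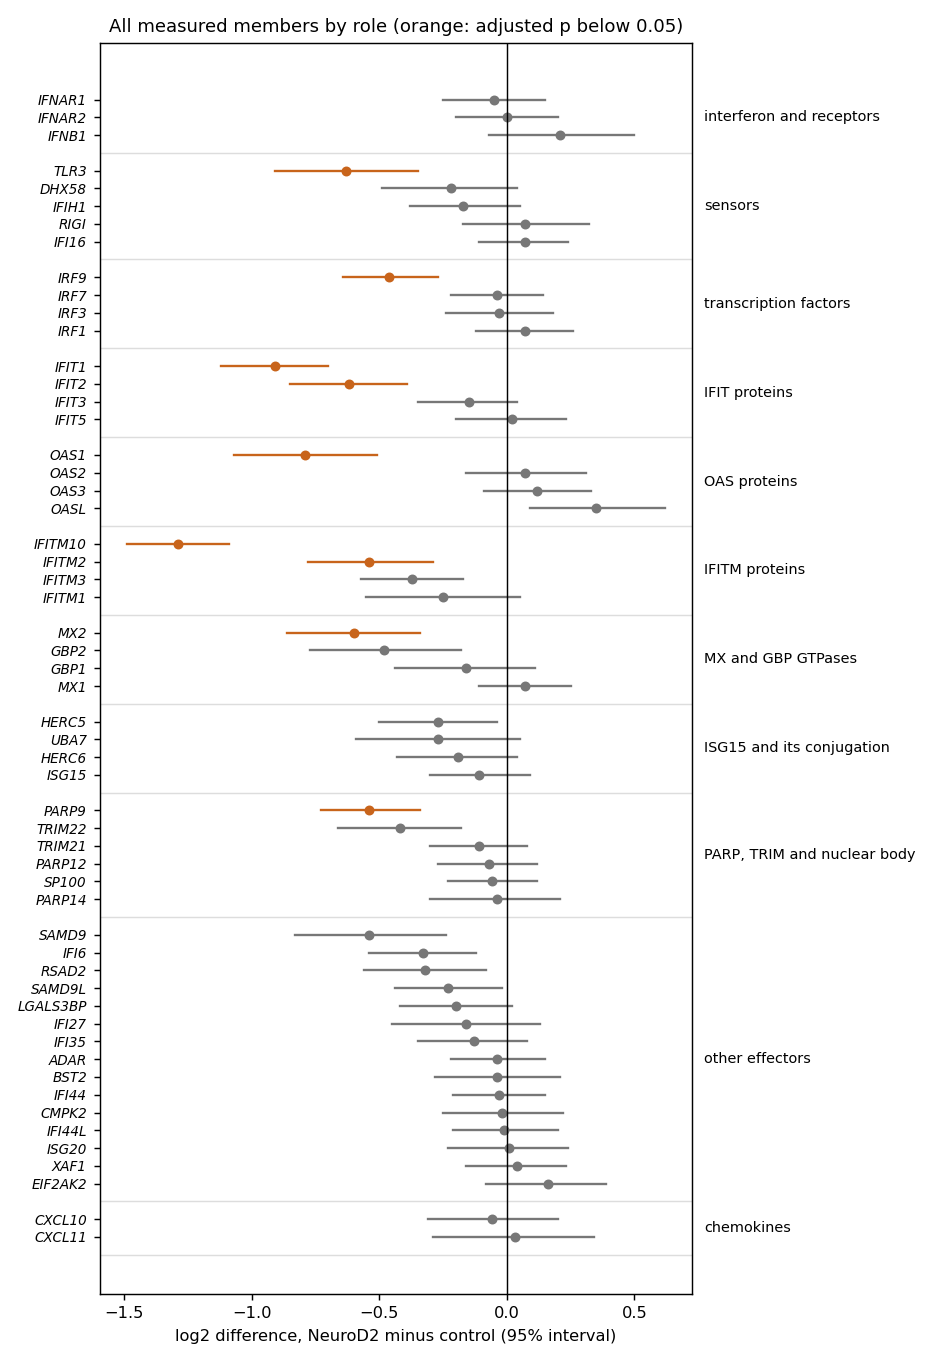
Log2 difference between NeuroD2 and control vector (horizontal axis) for each of the 55 measured members, grouped by role; points are differences and lines 95% intervals from limma. The 9 orange members, from IFITM10 at -1.29 to IRF9 at -0.46, passed an adjusted p of 0.05, and the grey members did not.

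**Figure D2:**
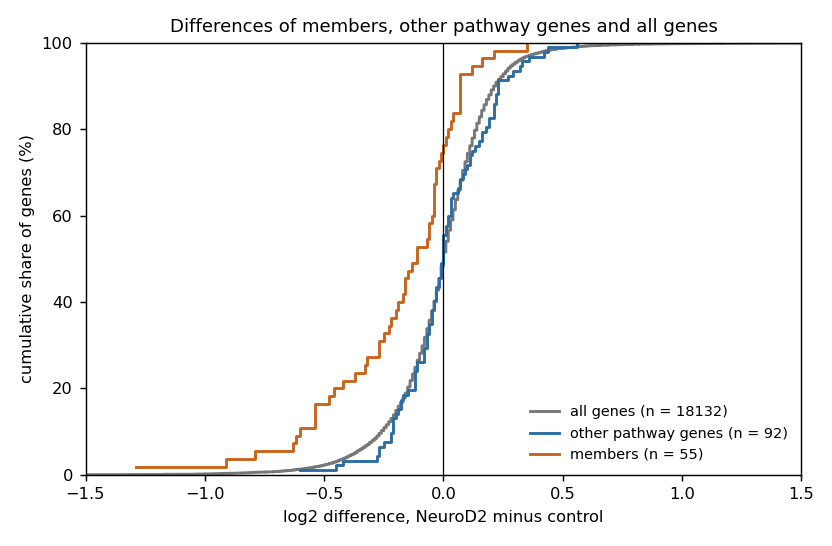
Cumulative share of genes (vertical axis, percent) against the log2 difference (horizontal axis, drawn from -1.5 to 1.5) for the 55 members, 92 other interferon pathway genes and all 18132 genes. The members' curve lies to the left of the others, with a median of -0.11 against 0.00 for both other curves.

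Several values on the arrays bear on all comparisons. The hybridisation spikes, control RNAs added before hybridisation, had a mean of 9.73 ± 0.24 in the control group and 10.12 ± 0.02 in the NeuroD2 group (log2, SD, n = 2 each), a difference of 0.39. Leaving out control replicate 1 made it 0.22, and leaving out control replicate 2 made it 0.56. For the poly-A spikes the mean was 6.95 on control replicate 1 and 7.96 to 8.03 on the other 3 arrays. The part of these differences in the results was not tested. The median of all genes lay between 6.54 and 6.60 on the 4 arrays. The transfected gene itself, NEUROD2, read 5.46 and 5.35 on the control arrays and 7.37 and 7.82 on the NeuroD2 arrays (difference 2.19, adjusted p = 0.0044 by limma, and 0.141 or 0.147 when a control array was left out). That is the brightest of its 3 probe sets, and averaged over all 3 the difference was 0.64 (adjusted p = 0.013). The 7 markers of mesenchymal and glial cells ran from S100B (4.74 to 4.94) and CHI3L1 (4.80 to 5.43) through GFAP (6.07 to 6.35) and NES (6.37 to 6.90) to SPARC (11.14 to 11.48), CD44 (12.74 to 12.92) and VIM (14.12 to 14.18). Leukocyte markers ran from PTPRC (2.95 to 3.53) to CD68 (10.07 to 10.21), a lysosomal gene that is not restricted to leukocytes, and endothelial markers from TEK (3.87 to 4.17) to KDR (6.17 to 6.69). Epithelial markers ran from CDH1 (3.56 to 3.77) to KRT8 (5.14 to 5.34). The mean over the 6 measured leukocyte markers ran from 5.22 to 5.36 on the control arrays and from 5.30 to 5.34 on the NeuroD2 arrays. None of the 6 passed the test. PTPRC differed by 0.40 (adjusted p = 0.112 by limma), AIF1 by 0.09, CD68 by 0.07 and CD14 by 0.05. In the other direction, CD3E differed by -0.21 and ITGAM by -0.25. The 3 dendritic cell markers were CLEC4C (3.13 to 3.54), IL3RA (3.97 to 4.39) and TCF4 (8.70 to 9.39), of which TCF4, not restricted to that cell type, passed (-0.58). How far other cells take part in the results was not tested.

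Among the ligand and its receptor, 0 of 3 members passed the test. IFNB1, which encodes IFN-beta, read 3.36 and 3.51 with the control vector and 3.79 and 3.52 with NeuroD2, a difference of 0.21 with a 95% interval from -0.07 to 0.50 (adjusted p = 0.356 by limma). The NeuroD2 arrays were above the control arrays by as little as 0.01, and all 4 values lie near the low end of a table that runs from 2.65 to 14.3. The receptor genes IFNAR1 (9.36 to 9.49) and IFNAR2 (7.46 to 7.60) differed by -0.05 and 0.00. The groups overlapped for both, and the sign of either difference turned when single arrays were left out. Of 11 other interferon genes, all read between 3.05 and 4.75, 0 passed and 1, IFNL1 (0.23, named after its value was seen), had an unadjusted p below 0.05.

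Among the sensors of viral nucleic acid, 1 of 5 fell. TLR3, the endosomal receptor for double-stranded RNA, read 4.62 and 4.48 with the control vector and 4.05 and 3.78 with NeuroD2. All 4 values are low, below the median level of all genes (6.56) in a table that starts at 2.65. The groups did not overlap, and the fall of 0.63 on the log2 scale, or 1.55-fold, had a standard error of 0.11 and an adjusted p of 0.0416. That p was 0.0531 when every probe set of the array was tested on its own, with the same difference. The cytosolic RNA helicases were not called. DHX58, a helper of the other helicases, differed by -0.22 and IFIH1, the sensor MDA5, by -0.17. In both cases the NeuroD2 arrays lay below the control arrays, as in 26.6% of all genes. Leaving out single arrays moved DHX58 between -0.36 and -0.09 and IFIH1 between -0.25 and -0.08, and the second probe set of IFIH1 differed by 0.01. RIGI, the sensor of RNA ends, differed by 0.07 on its brightest probe set and by -0.35 on its dimmest, and IFI16, a sensor of DNA, differed by 0.07.

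Of the 4 measured transcription factors 1 fell, IRF9, the DNA-binding part of ISGF3. It read 8.70 and 8.64 with the control vector and 8.20 and 8.22 with NeuroD2, so that the pairs lay apart by several times the distance within each. The fall of 0.46 (1.37-fold, standard error 0.07) had an adjusted p of 0.0333. Its other 3 probe sets were lower as well, by 0.09 to 0.32 without passing, and averaged over its 4 probe sets it differed by -0.29 (adjusted p = 0.0665). IRF1 (0.07), IRF3 (-0.03) and IRF7 (-0.04), which act in the induction of interferon and of interferon-stimulated genes, did not pass, with adjusted p-values from 0.655 to 0.897.

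The IFIT genes, which lie side by side on chromosome 10 and encode proteins that bind foreign RNA, had 2 of 4 members that fell. IFIT1 read 5.85 and 6.02 with the control vector and 5.02 and 5.03 with NeuroD2. This gap of 0.91 on the log2 scale, a 1.88-fold fall with a standard error of 0.09, had an adjusted p of 0.00926 by limma. IFIT2 read 6.75 and 6.80 against 6.25 and 6.06, a fall of 0.62 or 1.54-fold (adjusted p = 0.0267), and its second probe set differed by -0.49 (adjusted p = 0.0948 over all probe sets). IFIT3 read 7.46 and 7.37 against 7.30 and 7.22, a difference of -0.15 with an interval from -0.35 to 0.04 that did not pass. IFIT5 overlapped between the groups, at 8.72 and 8.89 against 8.84 and 8.80. The differences between these neighbours were not tested.

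**Figure D3:**
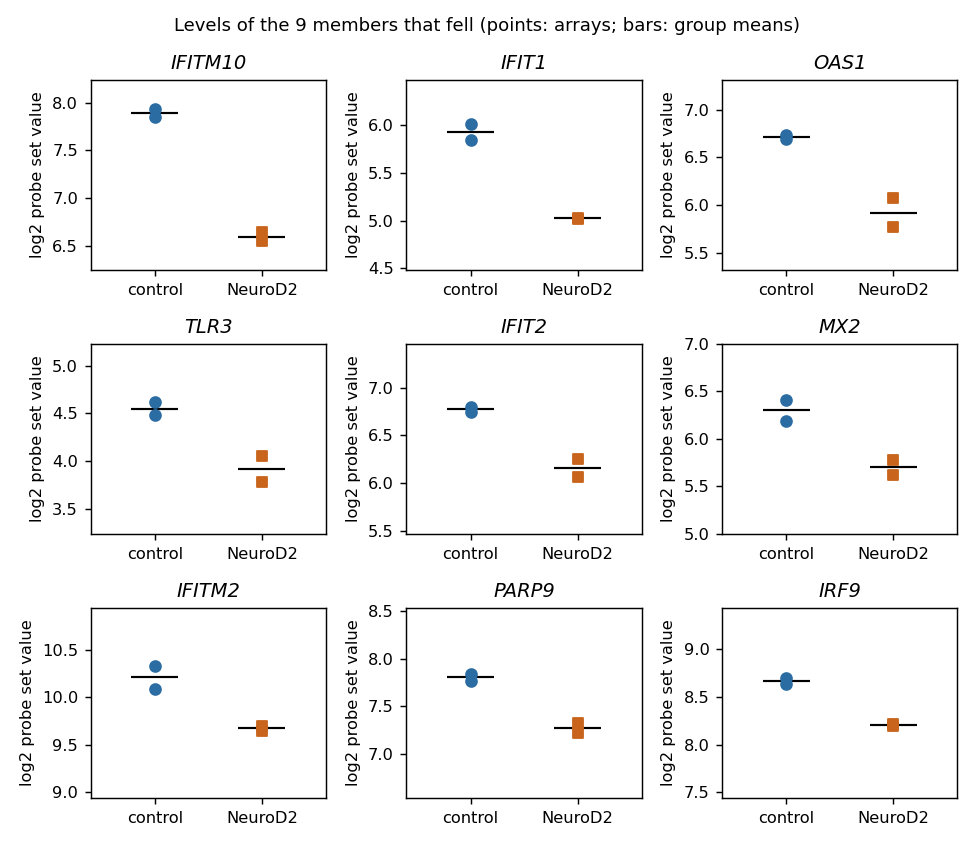
Log2 probe set values (vertical axis, each panel spanning 2 log2 units) on the 2 control arrays (blue circles) and the 2 NeuroD2 arrays (orange squares) for the 9 members that fell; black bars are group means. In all 9 panels both NeuroD2 points lie below both control points, most widely for IFITM10 (7.93 and 7.85 against 6.64 and 6.55).

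Of the OAS family, whose enzymes make the messenger that switches on RNase L, 1 of 4 fell; differences between the members were not tested. OAS1 read 6.73 and 6.69 with the control vector and 6.07 and 5.77 with NeuroD2, a fall of 0.79 or 1.73-fold (standard error 0.11, adjusted p = 0.0247). All 4 of its probe sets were lower, by 0.27 to 0.91, and 3 of them passed when adjusted over all probe sets. OAS2 (0.07) and OAS3 (0.12) did not pass. A probe set that carries the symbols of both OAS2 and OAS3, and so stood outside the gene counts, read 6.96 and 7.03 against 6.64 and 6.63 (difference -0.36, unadjusted p = 0.00405, adjusted p = 0.0773 by limma over all probe sets but controls). A second such probe set differed by -0.17. OASL, a relative that lacks the synthetic activity, was the single member with a higher level at an unadjusted p below 0.05. It read 7.64 and 7.41 against 7.80 and 7.96, a difference of 0.35 with an interval from 0.09 to 0.62 (adjusted p = 0.132), and its adjusted p was 0.0434 when genes below the median level were left out.

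Of the 4 IFITM genes, which encode small membrane proteins, 2 fell. All 4 were lower on each NeuroD2 array than on either control array, as were 26.6% of all genes. IFITM10, a distant member of the family that is not known as a typical interferon target, fell furthest of all 55, from 7.93 and 7.85 to 6.64 and 6.55. The fall of 1.29 is 2.44-fold, with a standard error of 0.08 and an adjusted p of 0.00329 by limma. Only 1 probe set carries the symbol IFITM10 alone, so no second reading of this gene was available. IFITM2, which blocks virus entry from endosomes, read 10.33 and 10.09 against 9.65 and 9.70, a fall of 0.54 (adjusted p = 0.0447, and 0.0572 over all probe sets). IFITM3, a close relative with the same known role, read 10.25 and 10.13 against 9.81 and 9.83 (difference -0.37, adjusted p = 0.0618). IFITM3 passed with an intensity trend in the variance (adjusted p = 0.00793), among the brighter genes (0.0132) and with probe set means (0.0346). IFITM1 was closest between the groups, at 5.63 and 5.39 against 5.14 and 5.38, and its second probe set differed by 0.04 in the other direction. IFITM1, IFITM2 and IFITM3 are related neighbours read on x_at probe sets, a kind that can match several transcripts, so their signals may be shared.

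Among the large GTPases 1 of 4 fell. MX2, a capsid-binding protein of the nuclear envelope, read 6.41 and 6.19 with the control vector and 5.78 and 5.62 with NeuroD2, a fall of 0.60 or 1.52-fold (adjusted p = 0.0392). Its second probe set, at 3.76 to 3.92 on every array, differed by 0.00, and with the mean of both the difference was -0.30 (adjusted p = 0.0558). MX1, a gene often used as an interferon readout, read 3.61 to 3.70 on all 4 arrays, near the low end of the table, and differed by 0.07. GBP2, a guanylate-binding protein, read 5.11 and 5.44 against 4.76 and 4.84 (difference -0.48, adjusted p = 0.0888), and passed when its 2 probe sets were averaged (-0.42, adjusted p = 0.0392). GBP1 differed by -0.16 with overlapping groups.

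Of the 4 genes of the ISG15 system 0 passed. ISG15 read 8.08 and 8.01 against 7.88 and 7.99 (difference -0.11), its activating enzyme UBA7 differed by -0.27, the ligase HERC5 by -0.27 and HERC6 by -0.19. Adjusted p-values ran from 0.166 to 0.504 by limma, and 1 gene, HERC5, had an unadjusted p below 0.05. In all 4 both NeuroD2 arrays lay below both control arrays, as in 26.6% of all genes, for ISG15 by a margin of only 8.01 against 7.99. Without NeuroD2 replicate 1 the difference was -0.05 for ISG15 and -0.13 for UBA7. USP18 encodes the protease that removes ISG15 and damps the receptor. Its only probe set also carries the symbols FAM247A, FAM247C, FAM247D and LOC105379548 and is not counted among the 55. It read 7.81 and 7.74 with the control vector and 7.04 on both NeuroD2 arrays, a fall of 0.74 (adjusted p = 0.0176 over all probe sets but controls), and which of these genes it reads cannot be told apart.

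Of 6 PARP, TRIM and nuclear body genes, PARP9 fell and the other 5 did not pass. All 6 differences were below 0 on the brightest probe set, but SP100 was above 0 on 6 of its 9 probe sets (mean 0.06), and PARP14 was 0.01 averaged over its probe sets and 0.07 without control replicate 2. PARP9 encodes an ADP-ribosyltransferase family member that acts with the ubiquitin ligase DTX3L. It read 7.84 and 7.77 against 7.22 and 7.32, a fall of 0.54 or 1.45-fold (adjusted p = 0.0267), and its other 2 probe sets differed by -0.40 and -0.37 without passing. DTX3L, from the list of other pathway genes and named after its value was seen, read 8.57 and 8.60 against 8.24 and 8.03 (difference -0.45, adjusted p = 0.0568). TRIM22, an antiviral ubiquitin ligase, differed by -0.42 on its brightest probe set (9.94 and 10.16 against 9.67 and 9.60, adjusted p = 0.0736), and passed with an intensity trend (0.0122), among the brighter genes (0.0186) and with probe set means (0.0305). All 6 of its probe sets were lower, by 0.15 to 0.65, and 1 of them, not the brightest, passed over all probe sets. TRIM21, PARP12, SP100 and PARP14 differed by -0.11 to -0.04.

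**Figure D4:**
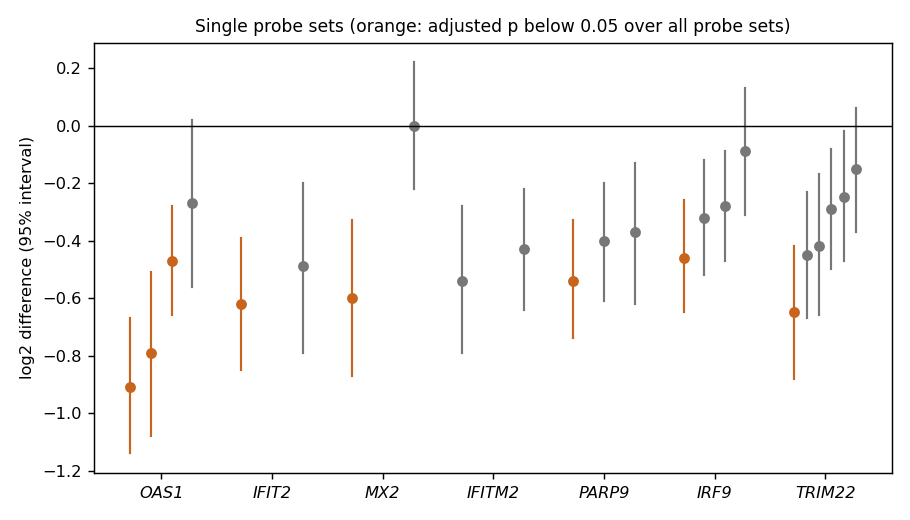
Log2 differences (vertical axis, lines 95% intervals) for every probe set of the 6 members that fell and have more than 1 probe set, and of TRIM22; orange marks an adjusted p below 0.05 over all probe sets. The 4 probe sets of OAS1 run from -0.91 to -0.27, while the second probe set of MX2 lies at 0.00.

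Counted over every probe set, 10 of the members' 148 probe sets were lower and 0 higher, against a background of 1.7% of 44988 probe sets lower. Of the 34 members with more than 1 probe set, 13 had all of them on the same side of 0 after rounding to 2 decimals, which leaves out MX2, IFNAR2 and CXCL11 with a probe set at 0.00.

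None of the 15 other effectors passed; at an unadjusted p below 0.05, 4 were lower and 0 higher. SAMD9, a cytoplasmic restriction factor, read 8.35 and 8.67 against 7.92 and 8.02 (difference -0.54, adjusted p = 0.0659). It passed with an intensity trend in the variance (adjusted p = 0.0156), with the genes at or above the median level (0.0173) and with the mean of probe sets (0.0366). Its neighbour SAMD9L differed by -0.23, the mitochondrial protein gene IFI6 by -0.33 (adjusted p = 0.0935, and 0.0384 with an intensity trend) and RSAD2, which encodes viperin, by -0.32. EIF2AK2, the kinase PKR that halts translation, differed by 0.16 in the other direction, and ADAR, which edits double-stranded RNA, by -0.04. LGALS3BP (-0.20), IFI27 (-0.16), IFI35 (-0.13), IFI44 (-0.03) and IFI44L (-0.01) did not pass, nor did the tethering factor BST2 (-0.04), XAF1 (0.04), the exonuclease gene ISG20 (0.01) and CMPK2 (-0.02). The interferon-induced chemokine genes CXCL10 (3.70 to 3.95) and CXCL11 (2.96 to 3.26) read low on all 4 arrays and differed by -0.06 and 0.03, with overlapping groups.

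Of 98 other genes of the pathway that are no members, 92 were measured, and 3 rose, 2 fell and 87 did not pass. Their median difference was 0.00, and the share that fell was 2.17%, against 2.96% of all genes lower and 1.81% higher. The counts are near these shares and are not read as a result about the list. The 3 that rose are in signalling. SOCS1, a feedback inhibitor of JAK kinases, read 4.61 and 4.74 with the control vector and 5.34 and 5.14 with NeuroD2 (difference 0.56, adjusted p = 0.0405). SOCS3, a related inhibitor, read 7.47 and 7.48 against 7.92 and 7.90 (difference 0.44, adjusted p = 0.0334), and IFNGR1, a chain of the receptor for interferon gamma, read 8.87 and 8.76 against 9.22 and 9.24 (difference 0.42, adjusted p = 0.0445). Of the 2 that fell, TLR4, the lipopolysaccharide receptor, read 5.18 and 5.13 against 4.66 and 4.45 (difference -0.60, adjusted p = 0.0308), and averaged over its probe sets it differed by -0.26 (adjusted p = 0.0759). The ubiquitin ligase family gene TRIM14 read 8.81 and 8.84 against 8.38 and 8.43 (difference -0.42, adjusted p = 0.0389), and averaged over its probe sets it differed by -0.12 (adjusted p = 0.349). Over every probe set tested on its own, IFNGR1 (adjusted p = 0.0605), SOCS1 (0.0519) and TRIM14 (0.0529) did not pass. The kinase genes JAK1 (-0.15) and TYK2 (-0.22) did not pass. Without any single one of the 4 arrays, 0 of the 92 passed in either direction by limma, with 3 to 9 lower and 5 to 12 higher at an unadjusted p below 0.05. Of the 52 other interferon-stimulated genes in this list 1 fell, TRIM14, and their median difference was -0.03.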

How the data were processed

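RNA of 4 U87MG cultures, 2 per vector, was labelled by 3′ IVT per the labels' protocols and hybridised to PrimeView arrays. The authors deposited a table of 49395 probe sets, taken to be log2 values from their range (2.65 to 14.3) and near-equal medians (5.98 to 5.99); which software, background correction and normalization made them is not given in the sources used here. No detection calls or scan dates were used, and precision is limited by having 2 arrays a group.

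Of the probe sets, 44988 carried 1 symbol in the platform annotation, 1832 several and 2473 none, and 102 were controls. The 55 members' Entrez IDs all matched RefSeq's GRCh38.p14 table, with 0 symbols changed. A gene's brightest probe set stood for it (18132 genes). Levels are log2 probe set values and not amounts per length, so their order between genes is only a description of the signals. Groups were compared with limma 3.58.1 in R 4.3.3 (lmFit, eBayes, two-sided, 2 residual and 3.84 prior degrees of freedom; Benjamini-Hochberg over all genes, threshold 0.05); the fit was tested on simulated data. An exact permutation test of 2 against 2 cannot go below 0.333 and was not used. Members, lists and the naming rule (members and other pathway genes past the threshold, the largest difference of each role, and the signalling core) were chosen with earlier results of these data known; the remaining members are named beside it. As alternatives, the fit was repeated with a replicate block, without each array, after quantile normalization or centring on array medians, with a variance trend on intensity, with a robust prior, on the brighter genes alone (level at or above the median), on probe set means and on every probe set.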

Additional observations from a re-analysis of the deposited data

How the results depend on the processing

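The replicate numbers did not pair the arrays by the data: the differences between replicates 1 and 2 correlated across genes at 0.0824 between the groups. With the replicate number as a block, 5 members fell (IRF9, IFIT2, IFITM2 and PARP9 did not pass, adjusted p from 0.0594 to 0.0766), 0 other pathway genes passed in either direction by limma (9 lower and 14 higher at an unadjusted p below 0.05), and 200 genes in all were lower and 135 higher. All 9 members stayed called under quantile normalization, array medians, the intensity trend and the robust prior. Each of the 9 was below 0 under every alternative in which it was fitted. Without single arrays that sign was fixed in advance, as both NeuroD2 arrays lay below both control arrays. The replicate block, the intensity trend, the robust prior, the brighter genes alone and every probe set use the same values. They leave the difference of a gene's brightest probe set unchanged, so the sign could not turn there either. Only quantile normalization, array medians and probe set means could have changed it. Leaving out single arrays gave 0 to 1 members lower, 0 to 29 genes lower and 0 to 37 higher in all, 0 other pathway genes in either direction, and a member median from -0.13 to -0.08. With an intensity trend 13 members were lower (the 9 with SAMD9, IFITM3, TRIM22 and IFI6; 23.6%) against 7.13% of all genes, 1293 genes were lower and 763 higher, and 4 other pathway genes were lower. Of the brighter genes alone (level at or above the median) 1282 were lower and 799 higher, 8 of 31 members were lower (25.8% against 14.1% of genes), 1 member was higher (OASL), and the other pathway median was -0.04. With the mean of probe sets 11 members were lower (20.0% against 3.93% of all genes), and the member median was -0.09. In that setting 713 genes in all were lower and 474 higher, and of other pathway genes 1 was lower and 5 higher. Over every probe set the member median was -0.05. Of 44988 probe sets in all, 767 were lower (1.7%) and 594 higher. Of the 242 probe sets of other pathway genes, 5 were lower and 2 higher.

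Of members that did not pass, 16 with differences between -0.06 and 0.07 changed sign under some alternative. Leaving out single arrays, the differences ran from -0.18 to 0.07 for CXCL10, -0.11 to 0.01 for IFNAR1, -0.07 to 0.07 for IFNAR2, -0.04 to 0.19 for RIGI, -0.10 to 0.04 for IRF3, -0.07 to 0.10 for IFIT5, -0.02 to 0.16 for OAS2, -0.15 to 0.07 for PARP14, -0.08 to 0.01 for ADAR, -0.09 to 0.11 for ISG20, -0.11 to 0.08 for CMPK2, -0.15 to 0.08 for BST2, -0.01 to 0.08 for XAF1, -0.08 to 0.07 for IFI44L and -0.12 to 0.18 for CXCL11. With the mean of probe sets they were -0.09 for RIGI, 0.00 for IFIT5, -0.05 for OAS2, 0.01 for PARP14, 0.06 for SP100, 0.05 for CMPK2, 0.02 for BST2, -0.01 for XAF1 and 0.02 for IFI44L. Quantile normalization gave 0.01 for IFNAR2, -0.02 for ISG20 and 0.02 for IFI44L, and array medians gave 0.00 for IFNAR2. The causes were not tested. The number of arrays, 2 per group, limits all of these results.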

Other observations

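Among the markers of the line, CHI3L1, a secreted glycoprotein of mesenchymal glioma cells, fell by 0.51 on the log2 scale. It read 5.43 and 5.28 with the control vector and 4.80 and 4.89 with NeuroD2 (adjusted p = 0.0383 by limma). These values lie below the median level of all genes (6.56). VIM differed by 0.00 and GFAP, the astrocyte filament gene, by 0.24 (adjusted p = 0.133 by limma). SPARC (-0.30), NES (-0.25), CD44 (0.03) and S100B (0.18) did not pass either. Among other pathway genes that did not pass, CD274, which encodes the checkpoint ligand PD-L1, differed by 0.36 and the adaptor gene STING1 by 0.33, both higher on both NeuroD2 arrays (adjusted p = 0.143 and 0.0683). These genes were named after their values were seen.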
